A study of Mus musculus with 6 samples.

Results

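Single-library regions on mouse chromosomes 8, 15 and 19 were examined in a map of the chromatin that probes for Tug1, a long noncoding RNA, brought down. Peaks of 4 pulldown libraries that overlapped by at least 1 bp were merged into 113114 regions, and 16296 of them (14.4%) lay on these 3 chromosomes, were found in exactly 1 library and fell outside 2 stretches of chromosome 8 (19600001 to 20700000 and 123500001 to 123700000). The chromosomes were chosen by their measured peak density in these same lists, so that density is given as a description, with no test on it. Each of the 16296 regions is 1 peak of 1 pulldown.

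The assay was ChIRP-seq, in which biotinylated oligonucleotides complementary to an RNA retrieve that RNA from crosslinked chromatin and the attached DNA is sequenced. Of 48 Tug1 probes, alternate ones formed an even and an odd pool, and each pool served for 2 pulldowns, called replicates 1 and 2 here; 2 libraries of input DNA lay behind the peak calls. All libraries came from one kind of cell, mouse kidney podocytes at passages 10 to 12 that carry a temperature-sensitive SV40 T antigen, were grown at 33 degrees and then kept for 10 days at 37 degrees to differentiate; no treatment, genotype or strain separated the groups. Immortalised podocytes grown in culture stand in here for the cell of the glomerulus, and lists of DNA peaks cannot be checked against the cell type's expressed markers. The labels do not state that the pulldowns used separate cultures, and p-values then measure only the spread between these libraries, which may be technical. Where 4 values follow each other, they stand in library order: even replicate 1, even replicate 2, odd replicate 1, odd replicate 2.

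Podocytes are epithelial cells of the kidney glomerulus whose interlocking foot processes, bridged by the slit diaphragm, form the outer layer of the filtration barrier. Tug1 is a nuclear and cytoplasmic long noncoding RNA, and its work in podocytes has been tied to mitochondrial metabolism. In ChIRP-seq, even and odd probe sets share the target RNA but no oligonucleotide. A place recovered with both sets is therefore usually given more weight than a place seen in 1 library, the kind described here.

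Promoter sequences show what a single-library region can hold, and 6 were chosen, the 2 genes per chromosome from the gene lists below with the most promoter bases under a region. Each window, from RefSeq on build GRCm38.p6 (the coordinates of mm10), runs from 250 bases before to 50 after an annotated transcription start and is printed 5′ to 3′ on the gene's strand. Capitals mark the bases that lay inside the region. On chromosome 8, the window of Tenm3, a teneurin of cell adhesion (chr8:48674641-48674940, minus strand), was covered over 285 of 300 bases by a region of odd replicate 2. That of Fat1, a giant protocadherin found at the slit diaphragm (chr8:44949958-44950257, plus strand), was covered over 95 bases by a region of even replicate 1. Both windows lie well inside the annotated genes (48225665 to 49522824 and 44933100 to 45052257), at internal starts and not at the outermost ones.
Tenm3: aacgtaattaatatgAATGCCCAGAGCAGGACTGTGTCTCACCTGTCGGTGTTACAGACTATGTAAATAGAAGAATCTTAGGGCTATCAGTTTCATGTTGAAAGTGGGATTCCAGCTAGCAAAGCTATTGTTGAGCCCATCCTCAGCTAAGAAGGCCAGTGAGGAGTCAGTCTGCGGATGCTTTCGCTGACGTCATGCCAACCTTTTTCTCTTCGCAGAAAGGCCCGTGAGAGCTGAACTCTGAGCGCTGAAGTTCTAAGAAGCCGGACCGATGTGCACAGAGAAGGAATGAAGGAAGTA
Fat1: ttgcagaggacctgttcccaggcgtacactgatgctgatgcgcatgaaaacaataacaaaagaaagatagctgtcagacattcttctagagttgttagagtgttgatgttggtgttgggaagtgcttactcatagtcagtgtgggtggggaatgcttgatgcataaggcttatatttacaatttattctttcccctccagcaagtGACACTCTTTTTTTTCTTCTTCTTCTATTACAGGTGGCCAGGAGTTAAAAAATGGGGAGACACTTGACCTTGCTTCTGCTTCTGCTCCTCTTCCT
On chromosome 15, the window of Mief1, which codes for a mitochondrial outer membrane protein that recruits the fission machinery (chr15:80233830-80234129, plus strand), was covered whole by a region of even replicate 1. That of Aqp2, the water channel of the collecting duct (chr15:99578806-99579105, plus strand), was covered over 294 bases by a region of odd replicate 1.
Mief1: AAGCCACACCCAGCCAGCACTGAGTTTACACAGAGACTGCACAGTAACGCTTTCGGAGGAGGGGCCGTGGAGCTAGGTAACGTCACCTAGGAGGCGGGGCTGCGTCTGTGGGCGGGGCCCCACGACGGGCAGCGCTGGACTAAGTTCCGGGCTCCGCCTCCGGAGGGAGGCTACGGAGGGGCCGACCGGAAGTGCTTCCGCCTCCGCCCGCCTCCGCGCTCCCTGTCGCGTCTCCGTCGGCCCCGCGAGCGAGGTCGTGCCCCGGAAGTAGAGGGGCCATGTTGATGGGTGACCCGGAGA
Aqp2: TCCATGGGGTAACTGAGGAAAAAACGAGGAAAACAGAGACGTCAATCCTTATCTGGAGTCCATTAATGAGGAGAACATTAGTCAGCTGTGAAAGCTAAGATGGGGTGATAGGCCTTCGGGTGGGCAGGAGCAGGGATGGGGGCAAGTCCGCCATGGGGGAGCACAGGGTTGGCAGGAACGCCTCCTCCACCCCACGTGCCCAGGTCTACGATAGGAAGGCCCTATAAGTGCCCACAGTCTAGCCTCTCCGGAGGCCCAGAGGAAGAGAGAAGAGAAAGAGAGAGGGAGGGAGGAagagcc
On chromosome 19, the window of Ndufs8, a subunit of respiratory complex I (chr19:3912725-3913024, minus strand), was covered over 264 bases by a region of even replicate 2. That of Cd5, a surface glycoprotein of lymphocytes (chr19:10738925-10739224, minus strand), was covered over 231 bases by a region of odd replicate 1.
Ndufs8: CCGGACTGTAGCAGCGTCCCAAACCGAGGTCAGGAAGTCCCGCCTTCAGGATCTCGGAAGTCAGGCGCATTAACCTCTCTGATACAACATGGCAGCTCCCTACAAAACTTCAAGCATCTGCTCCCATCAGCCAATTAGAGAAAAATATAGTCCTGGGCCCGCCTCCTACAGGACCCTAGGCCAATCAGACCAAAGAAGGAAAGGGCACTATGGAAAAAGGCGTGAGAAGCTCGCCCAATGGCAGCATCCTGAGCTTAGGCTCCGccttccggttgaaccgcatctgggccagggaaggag
Cd5: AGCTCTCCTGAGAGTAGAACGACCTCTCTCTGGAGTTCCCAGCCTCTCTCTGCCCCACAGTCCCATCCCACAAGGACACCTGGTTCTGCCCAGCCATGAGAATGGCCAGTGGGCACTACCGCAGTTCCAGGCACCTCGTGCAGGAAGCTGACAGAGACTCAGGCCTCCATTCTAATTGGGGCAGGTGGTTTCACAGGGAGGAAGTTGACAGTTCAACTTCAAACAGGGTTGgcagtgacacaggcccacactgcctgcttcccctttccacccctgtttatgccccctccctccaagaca
The 6 windows held 10, 2, 31, 8, 12 and 3 CpG dinucleotides for Tenm3, Fat1, Mief1, Aqp2, Ndufs8 and Cd5, against a median of 14 over all promoter windows. Both CpG-rich and CpG-poor promoters were thus among those recovered. The regions at Tenm3 and Ndufs8 came from replicate 2 lists, and their scores of 146 and 132 stood at percentiles 19.7 and 7.03 of those lists. The other 4 regions scored 3100, a value that most regions of the replicate 1 lists share.

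The single-library regions numbered 4805 in even replicate 1, 3435 in even replicate 2, 3222 in odd replicate 1 and 4834 in odd replicate 2. Density was counted per Mb between the first and last peak of a chromosome and divided by the density of single-library regions on the other 16 autosomes pooled, in the same library. On chromosome 8 (7181 regions) this relative density was 1.44 in even replicate 1, 1.69 in even replicate 2, 1.37 in odd replicate 1 and 1.78 in odd replicate 2, with a mean of 1.57 ± 0.197 (SD, n = 4). On chromosome 15 (5649 regions) it was 1.51, 1.68, 1.33 and 1.61 in the same order (mean 1.53 ± 0.148, SD, n = 4). On chromosome 19 (3466 regions) it was 1.56, 1.75, 1.45 and 1.76 (mean 1.63 ± 0.150, SD, n = 4). No other autosome reached these values in any library: the highest was 1.19, on chromosome 11 in even replicate 1, and the lowest 0.897, on chromosome 12 in the same library. The 3 chromosomes hold 11.8% of the autosomal Mb and 17.4% of the autosomal single-library regions.

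**Figure D1:**
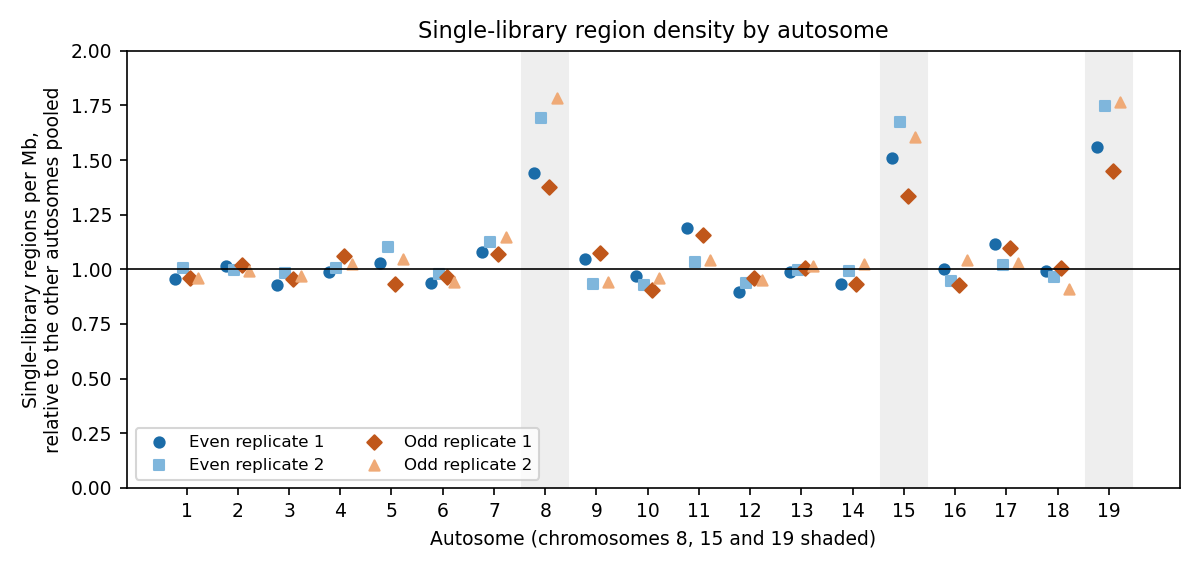
Single-library regions per Mb on each autosome (x axis), divided by the density on the 16 autosomes other than 8, 15 and 19 pooled (y axis), with 1 point per pulldown library. The points of chromosomes 8, 15 and 19 lie between 1.33 and 1.78, and those of the other autosomes between 0.897 and 1.19.

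Values of the 2 probe sets overlapped, and those of the 2 replicate numbers did not. With the 3 chromosomes pooled, relative density was 1.49, 1.70, 1.38 and 1.72 in library order. The even libraries averaged 1.59 ± 0.147 (SD, n = 2) and the odd libraries 1.55 ± 0.241 (SD, n = 2), a difference of 0.0472. The spread within either set was larger, but it holds the difference between replicate numbers. Within a replicate number, even stood above odd in replicate 1 (1.49 against 1.38) and below it in replicate 2 (1.70 against 1.72). Both replicate 2 libraries were above both replicate 1 libraries, at 1.71 ± 0.0137 against 1.43 ± 0.0804 (SD, n = 2 each). No p is given for either difference, since 2 libraries against 2 allow no exact permutation p below 0.333. The order was the same on chromosome 8 (1.74 against 1.41), chromosome 15 (1.64 against 1.42) and chromosome 19 (1.75 against 1.51). Input 1 served as the control for peaks of both replicate 1 libraries and input 2 for both of replicate 2, per the file names, so replicate and input cannot be told apart.

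Density was above that of the other autosomes in most bins of each chromosome. In 5 Mb bins, relative density was set against the median bin of the other autosomes. Of the 56 bins on the 3 chromosomes, 28 stood at 1.5 or more in even replicate 1, 46 in even replicate 2, 16 in odd replicate 1 and 46 in odd replicate 2, where 10.6%, 13.1%, 7.84% and 12.9% of all 472 autosomal bins did. Among the 416 bins of the other autosomes, the counts were 22, 16, 21 and 15. Bins at 1.5 or more in all 4 libraries numbered 14 on the 3 chromosomes and 2 elsewhere, 3.39% of all bins; those 2 lay on chromosome 1 at 85 to 90 Mb and chromosome 4 at 145 to 150 Mb. All 4 libraries were above the median bin in 48 of the 56 bins, against 27.3% of all autosomal bins. These counts use the contrast that chose the chromosomes and describe its shape.

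Chromosome 19 never fell below the median bin. All 11 of its bins exceeded the median of the other autosomes in all 4 libraries, with a lowest value of 1.13 in even replicate 1 and 1.48 in odd replicate 2. On chromosome 8, all 25 bins did so in both replicate 2 libraries, 22 in even replicate 1 and 24 in odd replicate 1, and the lowest value was 0.911. Chromosome 15 had the lowest bin of the 3 chromosomes in each library, at 0.679, 1.09, 0.642 and 0.854 in library order. Its bins at 15 to 20 Mb, 20 to 25 Mb and 45 to 50 Mb were above the median in only 1 library, even replicate 2.

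**Figure D2:**
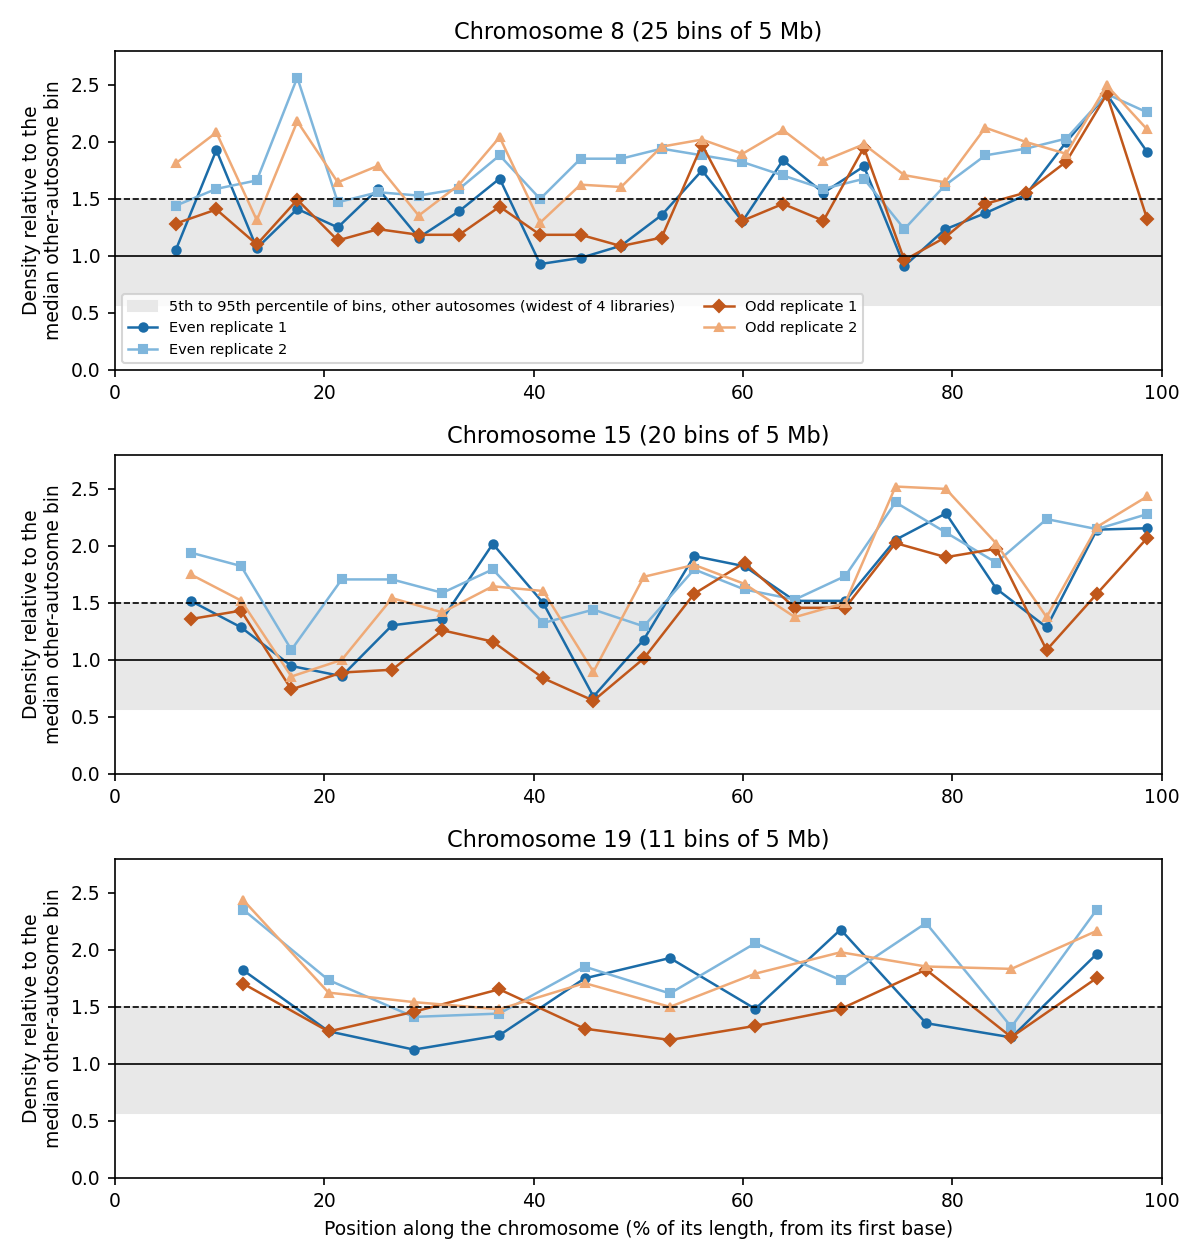
Density of single-library regions in 5 Mb bins (points) along chromosomes 8, 15 and 19, relative to the median bin of the other autosomes (solid line at 1, dashed line at 1.5), for 4 pulldown libraries; the x axis is the share of the chromosome's length in percent. All 11 bins of chromosome 19 lie above 1 in every library, and chromosome 15 falls to 0.642 near its middle in odd replicate 1.

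The fullest bin of each chromosome was rich in genes. The fullest bin of chromosome 8, at 120 to 125 Mb with 18.8 protein-coding genes per Mb, held 418 regions in 4.8 Mb, and its relative densities were 2.42, 2.42, 2.42 and 2.496 in library order. The corepressor gene Gse1 overlapped 29 of them, Zfp469 14 and Cbfa2t3, which codes for a transcriptional corepressor, 11. The fullest bin of chromosome 15, at 75 to 80 Mb with 31.4 genes per Mb, held 399 regions, 15 of them at Rbfox2, a splicing regulator, and 8 each at Cbx7, a Polycomb protein, and Zc3h3. That of chromosome 19, at 5 to 10 Mb and also with 31.4 genes per Mb, held 368, with 13 at Macrod1, 12 at Ahnak and 12 at Nrxn2, a presynaptic adhesion protein.

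The emptiest bins were gene-poor. On chromosome 15, the bin at 45 to 50 Mb had 0.4 genes per Mb and 156 regions, 32 of them in Csmd3. Its relative densities were 0.679, 1.44, 0.642 and 0.896 in library order. On chromosome 8, the bin at 50 to 55 Mb held 213 regions, 12 at Gpm6a, 7 at Wdr17 and 5 at Vegfc, a ligand of lymphatic growth, and stood at 0.929, 1.5, 1.19 and 1.29. On chromosome 19, the bin at 15 to 20 Mb held 244 regions, 21 of them at Gna14, and 15 each at Prune2 and Pcsk5, and stood at 1.13, 1.41, 1.46 and 1.54. Over the 56 bins, the correlation of relative density with protein-coding genes per Mb was r = 0.555, 0.629, 0.632 and 0.725 (Spearman's rank correlation 0.670, 0.671, 0.677 and 0.749) in library order. Within chromosome 19 alone (11 bins) it was weaker, at r = 0.222, 0.478, 0.199 and 0.526 (Spearman's rank correlation 0.533, 0.675, 0.305 and 0.492). There the bin at 10 to 15 Mb, with 26.8 genes per Mb, held 261 regions, and the bin at 55 to 60 Mb, with 7.6 genes per Mb, held 365. Bins share an assembly and an input, so these correlations are descriptions.

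Compared with bins of like gene content elsewhere, the 3 chromosomes were denser in each class of gene content. Within bins of at most 4.4 protein-coding genes per Mb (18 bins on the 3 chromosomes, 148 elsewhere), relative density was 1.49, 1.61, 1.37 and 1.69 in library order. Within bins of more than 8.8 genes per Mb (17 and 140 bins) it was 1.52, 1.72, 1.47 and 1.80, and in between (21 and 128 bins) it was 1.47, 1.78, 1.29 and 1.67. Since density chose the chromosomes, these ratios describe its shape and are no separate result about gene content. Between libraries, Pearson's r over the 56 bins ran from 0.561 (even replicate 1 with even replicate 2) to 0.746 (even replicate 1 with odd replicate 2). The rule itself removed every region shared between libraries. Bins share gene content, and same-numbered libraries share an input, so r is a description. Within chromosomes it ran from 0.535 to 0.803 on chromosome 8 and from 0.649 to 0.885 on chromosome 15, but from 0.0866 (even replicate 1 with odd replicate 1) to 0.741 on chromosome 19. Over the 416 bins of the other autosomes, r for the same 6 pairs ran from 0.333 to 0.724.

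Scores of these regions were lower than those of single-library regions elsewhere in the 3 lists whose scores vary. The score is the one the authors' peak caller gave each peak, its scale is not stated, and it is compared within a list only. In even replicate 2, the median score was 219 on chromosome 8, 220 on chromosome 15 and 225 on chromosome 19, and 262 on the other autosomes, none of which had a median below 242. In odd replicate 2, the medians were 185, 187 and 184 against 215, and the lowest median of another autosome was 208. In even replicate 1, most scores sit at a value of 3100, which 71.4% of the regions on the 3 chromosomes and 79.4% of those elsewhere reached. Chromosomes 15, 19 and 8 had the lowest shares of the 19 autosomes, at 70.8%, 71.5% and 72.0%, and the next, chromosome 17, had 77.6%. In odd replicate 1, every one of the 3222 regions scored 3100, so that list shows no difference.

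The surplus of regions was largest among low scores and small among high ones. The scores of each replicate 2 list were divided into 4 classes of 25% of its peaks. Only single-library regions were then counted, so peaks that overlapped another library are missing from each class. Whether that filter bears on the classes was not tested. In the lowest class, of scores up to 193 in even replicate 2, relative density was 2.96 on chromosome 8, 2.87 on chromosome 15 and 2.85 on chromosome 19. In the same class of odd replicate 2, of scores up to 159, it was 2.68, 2.52 and 2.83. The other 16 autosomes ranged from 0.840 to 1.34 and from 0.764 to 1.24 there. In the 2 middle classes, the 3 chromosomes lay between 1.35 and 1.73 in even replicate 2 and between 1.40 and 1.67 in odd replicate 2. In the highest class they lay at 1.14, 1.07 and 1.16 in even replicate 2 and at 1.10, 1.03 and 1.07 in odd replicate 2, where the other autosomes ranged from 0.923 to 1.13 and from 0.881 to 1.12. Chromosomes 8 and 19 in even replicate 2 lay just above that range and the others within it. The lowest class held 38.9% of the regions of even replicate 2 on the 3 chromosomes and 22.7% of those elsewhere, and 37.7% and 24.4% in odd replicate 2.

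**Figure D3:**
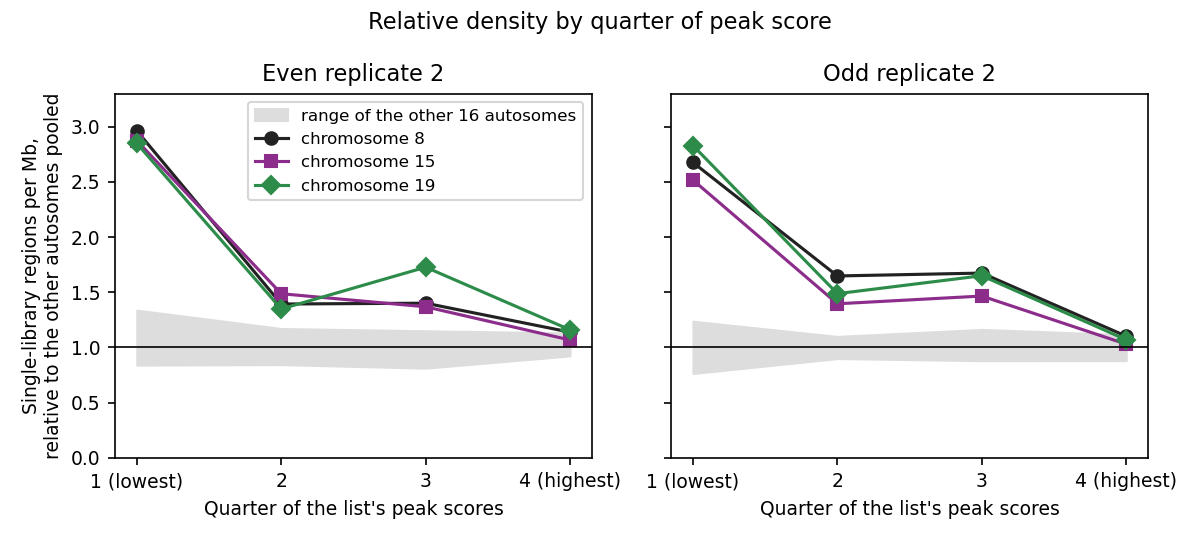
Relative density of single-library regions (y axis) in 4 classes of peak score of 25% each (x axis, lowest to highest) for the replicate 2 lists, in which scores vary; lines are chromosomes 8, 15 and 19 and the grey band spans the other 16 autosomes. The 3 chromosomes lie between 2.52 and 2.96 in the lowest class and between 1.03 and 1.16 in the highest.

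Low-scoring regions were dense in most bins of the 3 chromosomes. Against the mean density of the other autosomes in the lowest class, 52 of 56 bins stood at 1.5 or more in even replicate 2 and 54 of 56 in odd replicate 2, where 21% and 19.7% of all autosomal bins did. The median bin stood at 2.72 and 2.58, and the lowest, both on chromosome 15, at 1.24 and 0.748. In the highest class, 9 of 56 bins stood at 1.5 or more in each library, against 7.84% and 7.42% of all autosomal bins, and the median bin stood at 1.11 and 1.10. In even replicate 1, a related pattern held below the value of 3100: the 1372 regions there had a relative density of 2.07, and the 3304 regions at 3100 one of 1.32. The 129 regions above 3100 stood at 1.94. Density in that list thus did not fall steadily with score.

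Widths differed by less than the spread between libraries. Median width was 391 bp on the 3 chromosomes and 382 bp on the other autosomes in even replicate 1, 406 and 404 bp in even replicate 2, 241 and 242 bp in odd replicate 1, and 407 and 405 bp in odd replicate 2. The log2 ratio averaged 0.010 ± 0.017 (SD, n = 4; two-sided exact permutation test by sign flips, p = 0.25, where 4 libraries allow no p below 0.125).

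Regions of more than 1 library, just outside the rule, were also denser on these chromosomes, which were chosen by peak density in these same lists. Outside the 2 stretches, the 3 chromosomes held 1733 regions of 2 libraries, 408 of 3 and 98 of all 4, which made up 9.35%, 2.20% and 0.529% of their 18535 regions. Relative density was 1.57 for regions of 1 library, 1.76 for those of 2, 1.82 for those of 3 and 1.38 for those of all 4. Regions of 2 libraries stood at 1.97 for the even pair (665 regions), 1.91 for the odd pair (283), 1.46 for both replicates 1 (266) and 1.91 for both replicates 2 (85). The remaining pairs stood at 1.57 for even replicate 1 with odd replicate 2 (374) and 1.94 for even replicate 2 with odd replicate 1 (60). The excluded stretches held 227 and 11 single-library regions, or 206 and 55.0 per Mb, against 57.4 per Mb over the rest of the 3 chromosomes.

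The surplus was found inside and outside genes. It is the contrast that chose the chromosomes, here divided by gene class, so values above 1 are no separate result. A region was placed by its centre, first in protein-coding genes, then in lncRNA genes, then in genes of other kinds. Relative to the same class of bases on the other autosomes, density was 1.63 ± 0.199 (SD, n = 4) in protein-coding genes, 1.53 ± 0.157 in lncRNA genes, 1.51 ± 0.128 in genes of other kinds and 1.52 ± 0.158 outside genes, and the lowest value of any class in any library was 1.34. Protein-coding genes held 49.3%, 45.01%, 47.8% and 46.2% of the regions in library order, and 46.3%, 42.1%, 46.2% and 42.6% of single-library regions on the other autosomes. The difference was 2.78 ± 0.833 percentage points, with the share higher in 4 of 4 libraries (two-sided exact permutation test by sign flips, p = 0.125, the smallest possible for n = 4). The share of bases in such genes moved the same way, 42.0% against 40.8%, and its part in the difference was not tested. On chromosome 19, relative density per base in protein-coding genes was 1.52, 1.77, 1.41 and 1.84 in library order. Outside genes it was 1.63, 1.70, 1.44 and 1.66. On chromosome 15 these values were 1.60, 1.70, 1.32 and 1.80 in genes and 1.45, 1.70, 1.32 and 1.40 outside. The difference in shares, which takes no account of bases, was largest on chromosome 19 alone, 7.91 points (exact permutation p = 0.125). On chromosome 15 alone it was 0.660 points (exact permutation p = 0.75). For lncRNA genes it was -0.0061 ± 0.647 points (SD, n = 4; exact permutation p = 1), negative in both even and positive in both odd libraries.

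**Figure D4:**
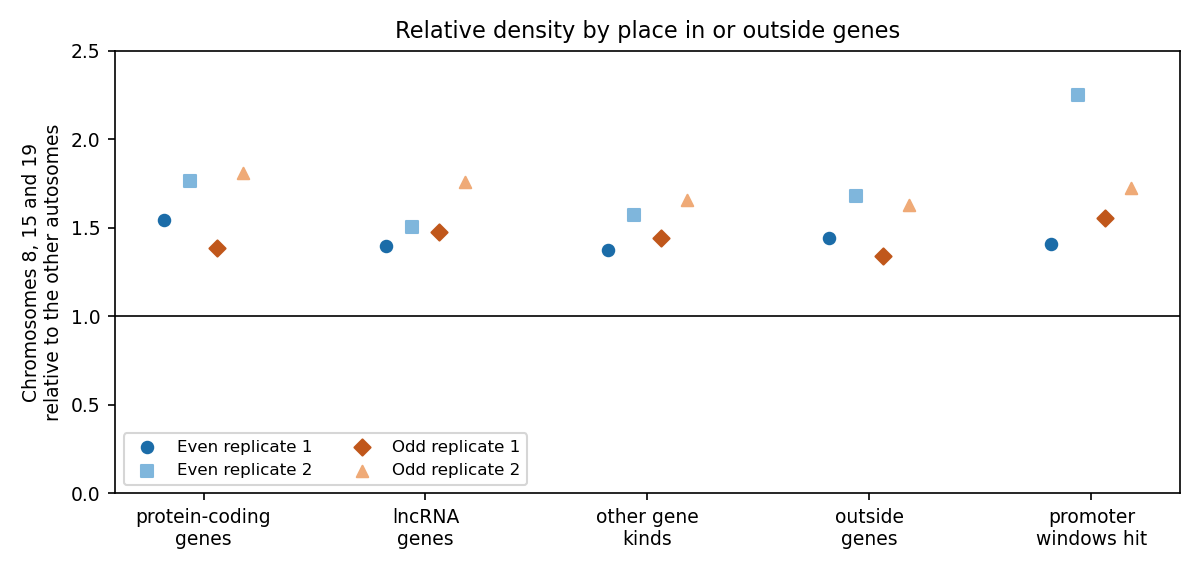
Density of single-library regions on chromosomes 8, 15 and 19 relative to the other autosomes (y axis), by the kind of gene that held the centre of the region, and the ratio of the shares of protein-coding genes with a promoter window under a region (right), with 1 point per pulldown library. All 20 points lie above 1, from 1.34 outside genes in odd replicate 1 to 2.25 for promoter windows in even replicate 2. The chromosomes were chosen by their density.

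Promoter windows were recovered more often on the 3 chromosomes in all 4 libraries. A region overlapped a promoter of 34, 27, 26 and 37 of the 1733 protein-coding genes with a window on the 3 chromosomes, or 1.96%, 1.56%, 1.5% and 2.14%. Over all autosomes the shares were 1.45%, 0.784%, 1.02% and 1.33%, and over the other autosomes 1.39%, 0.693%, 0.965% and 1.24%. The ratio of the 3 chromosomes to the others was 1.73 ± 0.366 (SD, n = 4). By library it was 1.41, 2.25, 1.55 and 1.73, beside 1.49, 1.70, 1.38 and 1.72 for the density of all single-library regions. That density chose the chromosomes, so the ratio is no separate result about promoters. Of the genes with a promoter under a region, 1, Map2k7, which codes for a kinase upstream of JNK, had regions of 2 libraries over its windows; it was chosen after its values were seen. The recovered promoters held a median of 21 CpG in even replicate 1 and in odd replicate 2, and 9 and 10.5 in even replicate 2 and odd replicate 1, against 16 in the promoters of the same chromosomes that were not recovered. Besides the 6 genes whose windows are printed, listed genes with a promoter under a region were Hdac7, a histone deacetylase gene (even replicate 1), Gdnf, which codes for the ligand that drives branching of the ureteric bud (even replicate 2), and Lifr, a cytokine receptor subunit, and Pax2, a transcription factor of kidney development (both odd replicate 1). The windows of Hdac7, Lifr and Pax2 lie at internal starts, inside the annotated genes.

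Long genes held the largest numbers of regions. On chromosome 8, the 913078 bp gene Wwox (114439635 to 115352712), which spans a common fragile site, overlapped 81 regions, 25, 19, 18 and 19 in library order. It was followed by Tenm3 with 72, Cdh13, an atypical cadherin, with 70, Csmd1 with 69, the growth factor gene Nrg1 with 52 and Galntl6 with 49. Per Mb of gene these were 88.7 in Wwox, 55.5 in Tenm3, 59.1 in Cdh13, 42.0 in Csmd1, 48.0 in Nrg1 and 43.0 in Galntl6. On chromosome 15 the counts were 44 in Cdh12, 41 in Ctnnd2, which codes for delta-catenin, 36 in Ncald, 33 in Vps13b, 32 in the Arf GTPase regulator Asap1 and 32 in Csmd3. Per length, Asap1 had 108 per Mb and Csmd3 26.4, so the same count lay in genes of very different size. On chromosome 19, Prkg1, the gene of a cGMP-dependent kinase, held 64 (24, 10, 13 and 17 in the order given), Trpm3 31, Atrnl1 and Sorcs3 28 each, Hpse2 26 and the actin-binding protein gene Ablim1 24.

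Each of these 18 genes held regions of all 4 libraries. The longest protein-coding genes without any region were far shorter: Lrrc36 at 50489 bp and Fam149a at 45577 bp on chromosome 8, Prkaa1, a catalytic subunit of AMP-activated kinase, at 38039 bp, Ugt3a2 and Gsdmc on chromosome 15, and Cc2d2b at 81026 bp, Papss2 and Cyp2c40 on chromosome 19. On chromosome 8, 4930467E23Rik also had none, since it lies in an excluded stretch. In genes of at least 500 kb (30 on the 3 chromosomes, 186 elsewhere), density per Mb of gene relative to the other autosomes was 1.43, 1.55, 1.27 and 1.95 in library order. Long genes thus shared the surplus that chose the chromosomes, which is no separate result about them.

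Genes were then read by group, as the number with a region inside or within 5 kb. The background was high: 83.6% of the 2524 protein-coding genes of the 3 chromosomes had such a region, against 71.5% of those on the other autosomes and 72.9% over all autosomes, and the lists below differ in gene length. Counts near this background are therefore not results about a list. Regions of at least 2 libraries were near 56.4% of the genes of the 3 chromosomes, 40.3% of those elsewhere and 42.3% over all autosomes. Over all protein-coding genes of the 3 chromosomes, with 5 kb on each side, there were 66.7 regions per Mb, and 41.2 elsewhere. The median number of regions per gene was 2 and 1.

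Podocyte and basement membrane genes, of median length 125 kb, had a region in 18 of 18 cases, with a median of 11.5 regions and 68.7 per Mb. Palld, which codes for the actin-binding protein palladin, had 23 (6, 4, 3 and 10 in library order). Dlc1, a tumour suppressor gene, had 22, Plce1, a phospholipase C gene mutated in nephrotic syndrome, 20, and Ext1, a heparan sulfate polymerase gene, and Fat1 16 each. The density of the list was close to that of all protein-coding genes of these chromosomes. Growth and vessel factor genes had a region in 18 of 20 cases and 55.8 per Mb, led by Nrg1 with 53, Angpt1, the ligand of the Tie2 receptor, with 14, and Gfra1, the GDNF co-receptor, and Lifr with 12 each; Fas and Fgf20 had none.

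Cadherin and synaptic adhesion genes, the longest group with a median of 281 kb, had a region in 23 of 23 cases but only 46.5 per Mb. Chromatin genes had one in 21 of 21 cases and 65.4 per Mb, led by Zfpm2, a GATA cofactor gene, with 19, the remodeller gene Smarca2 with 17, Chd9 with 14 and Ep300, a histone acetyltransferase gene, with 12. Mitochondrial genes, of median length 7.10 kb, had one in 20 of 25 cases and 60.1 per Mb. Those with most were Cpt1a, the rate-setting enzyme of fatty acid import, with 4, and Cox4i1, Mief1, Ndufa6 and Sco2 with 3 each, and no gene of the list had regions of all 4 libraries. Ndufv1, Ndufb8, Ndufa13, Ucp1 and Twnk had none.

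Tubule transport genes had a region in 11 of 13 cases and 70.9 per Mb, led by the monocarboxylate transporter gene Slc16a12 and the magnesium channel gene Trpm6 with 10 each, while Aqp5 and Slc22a6 had none. Immune genes had one in 16 of 17 cases and 92.5 per Mb, the highest of the 8 lists, with 15 at Fyb, 8 at Pdcd1lg2 and 7 at Irf8. Il7r had none. That density rests on 65 regions near genes of median length 23.2 kb, and its rank was not tested. Of 7 loci on the list of long noncoding RNA genes, Pvt1 next to Myc had 20 regions (11, 3, 5 and 1 in library order), and Malat1, Neat1, Hotair and Snhg1 had 1 each; the remaining 2, 4930467E23Rik and Gm21119, lie in an excluded stretch and are listed as protein-coding in the gene table. Even replicate 1, the list with most peaks, gave most of the regions at Pvt1, while odd replicate 2, the next largest list, gave 1. Whether list size bears on these counts was not tested.

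Clustered gene families spanned a wide range of densities. Of all protein-coding genes of the 3 chromosomes, 83.6% had a region, at 66.7 per Mb. Only the Hoxc, carboxylesterase, Slc22 and Cyp2c families had a higher share of genes with a region. The Ly6 family (73.3%), keratins (65.4%) and defensins (59.6%) were among those below it. No difference from that background was tested. With 5 kb around each gene, and a region counted once for each gene it lay near, densities were 99.2 per Mb for the Ly6 family (11 of 15 genes with a region), 97.6 for the Hoxc cluster of developmental transcription factors (8 of 9), 73.0 for carboxylesterases (17 of 19) and 70.8 for keratins (17 of 26). Lower values were found for defensins (60.4 per Mb, 31 of 52), the Slc22 family (58.2, 9 of 10), Ms4a genes (51.4, 15 of 21), apolipoprotein L genes (43.7, 8 of 12), Cyp2c genes (39.9, 13 of 15) and the olfactory receptors of chromosome 19 (37.9, 24 of 63) and of chromosome 15 (53.1, 6 of 9). Of the 4 metallothionein genes, 1 had a region. Neighbouring genes share regions, so these counts are not independent.

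The region with the top score in each library is given for each chromosome, the widest where scores tied. In even replicate 2 the top scores were 1250 on chromosome 8 (69304503 to 69304755, outside genes, 1119 bp from D130040H23Rik), 1459 on chromosome 15 (100619108 to 100619354, at Dazap2) and 1167 on chromosome 19 (35055691 to 35055917, outside genes, 79941 bp from Kif20b). In odd replicate 2 they were 1230 on chromosome 8 (9396111 to 9396423, in Fam155a), 1225 on chromosome 15 (93178199 to 93178614, in the lncRNA gene Gm38535) and 1210 on chromosome 19 (2 regions, the wider at 23322093 to 23322300, in Mamdc2). Each of these 6 stood above percentile 99.3 of its list. In even replicate 1 the top score of 3233 was shared by 4 regions of chromosome 8, the widest at Prmt9, an arginine methyltransferase gene (77562556 to 77562958), and by 2 of chromosome 15, the wider at Gramd4 (86090812 to 86091307), and reached once outside genes on chromosome 19 (20179516 to 20179845, 193589 bp from Anxa1). In odd replicate 1 all regions tied at 3100, and the widest were 879 bp long on chromosome 8, 43397 bp from Sh3rf1, 880 bp on chromosome 15, 96650 bp from Mtss1, and 570 bp on chromosome 19, in Mxi1.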

How the data were processed

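Chromatin of 4 pulldowns (2 even, 2 odd) was analysed; the 2 input libraries entered only through the authors' peak calls. The submitters' processing notes name Bowtie2 2.1.0 and the mm10 build. Each pulldown has its own list of peaks, called by the authors against 1 input without pooling, per the file names. Peak names start with MACS; its version and threshold were not given in the sources used. The score of each peak is the authors' value in the deposited lists, on a scale that is not stated. A list of the whole series was not used here. Lists hold no reads: depth is unknown, and a deeper library can yield more peaks.

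Overlapping peaks (1 bp or more) were merged into regions, and those of exactly 1 library were kept on chromosomes 8, 15 and 19, outside 2 stretches of chromosome 8. Bins of 5 Mb with less than 2.5 Mb between the first and last peak were left out. Genes came from a RefSeq table of GRCm38.p6 (49997 entries), and promoters from RefSeq windows. Tests were exact permutations over libraries, two-sided: sign flips of 4 within-library differences. The comparison of probe sets is given as values, since its test could not pass a threshold.

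The members, chromosomes and gene lists were chosen with earlier results of these data known. Named genes are, per chromosome, the 6 protein-coding genes with most regions, the 3 longest with none and up to 3 in the fullest and emptiest bins; per list, up to 6 genes with regions of at least 2 libraries; and the best-scoring region per library and chromosome. Other list genes are named for having no region or for a promoter under one. One gene that this rule names is not reported here. Bins and genes are not replicates. Alternatives were a reciprocal overlap of 50%, merging across 1000 bp, peaks at or above the median score, other bin sizes, stretches kept in, all peaks, another reference, and each library left out; score classes were chosen after the data had been seen. Tested on simulated data, the scripts recovered a planted 1.5-fold density on the 3 chromosomes as 1.49. Python 3.11.15, numpy 2.4.6, pandas 2.3.3 and matplotlib 3.10.9 were used.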

Additional observations from a re-analysis of the deposited data

How the results depend on the processing

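Of 99 recalculated values for 11 results, 80 were counted as unchanged, 11 moved and 8 changed sign. For the shares inside genes, the widths and the even minus odd difference, unchanged means only that the sign was kept. With so few libraries, no p there could pass a threshold in any setting. The protein-coding share of 2.78 points thus counted as unchanged at 0.660 on chromosome 15 alone and at 7.91 on chromosome 19 alone. For the other results, unchanged means a value near the reported one. Relative density stayed above 1 in every setting run. With peaks at or above the median score it was 1.37 on chromosome 8, 1.33 on chromosome 15 and 1.46 on chromosome 19. In the top 25% of scores of the replicate 2 lists it was 1.12, 1.05 and 1.11, and in the bottom 25% it was 2.82, 2.69 and 2.84. Leaving out a library gave 1.52 to 1.65 on chromosome 8, 1.503 to 1.60 on chromosome 15 and 1.59 to 1.68 on chromosome 19. The mean correlation between libraries over bins was 0.673 and fell to 0.514 with 2 Mb bins, and lay between 0.646 and 0.753 with a library left out. The lncRNA share differed by 0.140 points with peaks at or above the median score, by 1.30 points on chromosome 15 alone, and by -0.314 to 0.210 points with a library left out. The log2 ratio of widths was -0.0405 with peaks at or above the median score and -0.00712 on chromosome 19 alone. The cause of these changes was not tested. The even minus odd difference lay between -0.133 and 0.194 with a library left out, values with no test. With the replicate number as a block, that difference stayed at 0.0472, and 2 pairs allow no exact permutation p below 0.5. Same-numbered libraries deviated together over all autosomal bins (r = 0.386) but not over the 56 bins of the 3 chromosomes (r = 0.0248). Bins at 1.5 or more averaged 60.7% of those on the 3 chromosomes and 55.4% to 69.6% with a library left out. Depth behind each list is unknown, which limits any comparison of peak numbers between libraries.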

Other observations

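The defensin genes of chromosome 8 differed in which libraries covered them. Of 41 overlaps between single-library regions and these genes with 5 kb on each side, 3 came from even replicate 1, 18 from even replicate 2, 5 from odd replicate 1 and 15 from odd replicate 2. These genes lie on both sides of an excluded stretch, neighbouring genes share regions, and the difference was not tested.

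Outside chromosomes 8, 15 and 19, the bins at 1.5 or more in all 4 libraries had higher values in the replicate 2 libraries. On chromosome 1 at 85 to 90 Mb, relative density was 1.66 and 1.60 in even and odd replicate 1, and 2.74 and 2.60 in even and odd replicate 2. On chromosome 4 at 145 to 150 Mb it was 1.57 and 1.83 in even and odd replicate 1, and 2.97 and 2.67 in even and odd replicate 2. Both bins were picked out by these same values.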
